A study of Mus musculus with 11 samples.

Results

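The cytosolic ribosomal protein genes were examined in RNA-Seq data from whole mouse cochleae. Members were the genes whose symbol began with Rpl, Rps or Rplp followed by a number and then by no more than a single letter (a, l, x or y) and a single digit, with the S6 kinase genes and pseudogenes left out, and 83 of the 18667 genes in the expression tables met this rule. They comprised 43 genes for proteins of the large subunit, 30 for the small subunit, 3 for the stalk of the large subunit and 7 paralogs. The libraries came from 2-month-old mice, with 5 in the Atf6+/+ and 6 in the Atf6-/- group, and each was made from a single whole cochlea with no treatment stated. Atf6-/- mice carry a premature stop codon in the fourth exon of Atf6 in every tissue, so that the ATF6 protein is lost while its mRNA can remain. Both groups were on the C57BL/6J background and thus share the Cdh23ahl allele, which causes age-related hearing loss of its own. Values were FPKM, fragment counts scaled to the length of the transcript and to the size of the library, so that levels can be compared between genes.

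Each cytosolic ribosome contains one copy of most of its proteins, and the cell makes these proteins in matched amounts. Their mRNAs are short and abundant. They typically begin with a C followed by an unbroken run of C and T bases, the 5′ terminal oligopyrimidine (TOP) tract, through which mTORC1 and the RNA-binding protein LARP1 set how much of them is translated and kept. A few members have paralogs that replace them in particular tissues, such as the striated muscle protein encoded by Rpl3l. ATF6 is a membrane-bound transcription factor of the unfolded protein response, which also has a PERK branch that lowers translation when misfolded protein builds up in the ER and an IRE1 branch that acts through Xbp1 splicing. The comparison addressed whether the ribosomal protein mRNAs differed with Atf6 genotype, and how far differences between libraries in short transcripts bore on the answer.

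To show the start of the mRNA that the TOP tract is named for, sequence around annotated starts was read from RefSeq promoters of GRCm38.p6, an older build than the GRCm39 assembly used for alignment. Each line holds 10 bases before and 20 bases from the annotated start, 5′ to 3′ on the strand of the gene, so that the start is base 11. Capitals mark the longest run of C and T that overlaps the 5 bases on either side of the start, or the more upstream run where lengths tie, and the run need not hold the start itself. The first 4 genes had the smallest p among all members, and the next 2 had the largest p.
Rpl22l1 (chr3:28805498-28805527, plus strand): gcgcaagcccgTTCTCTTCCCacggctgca
Rps16 (chr7:28350679-28350708, plus strand): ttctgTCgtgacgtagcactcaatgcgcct
Rpl37a (chr1:72711250-72711279, plus strand): ctcgccggTCTaaaaccgcgcatgcgcatt
Rpl10 (chrX:74270806-74270835, plus strand): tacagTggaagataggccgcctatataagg
Rps2 (chr17:24720053-24720082, plus strand): gtcgagatctcgcgCTTCTTggagcactat
Rpl27 (chr11:101442235-101442264, plus strand): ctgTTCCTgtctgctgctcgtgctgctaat
For contrast, the 3 most abundant members with a C at the annotated start followed by at least 4 bases of C or T are shown. They were chosen after the starts had been seen, and in each the marked run begins before the start.
Rpl38 (chr11:114668570-114668599, plus strand): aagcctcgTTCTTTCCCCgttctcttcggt
Rps27 (chr3:90213629-90213658, minus strand): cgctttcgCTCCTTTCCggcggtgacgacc
Rpl28 (chr7:4792955-4792984, plus strand): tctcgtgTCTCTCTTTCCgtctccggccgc

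Promoter entries matched 62 of the 83 members by gene identifier. A C at the annotated start followed by at least 4 bases that were C or T, read on the strand of the gene, was found in 14 of the 62 members (22.6%), in 2.87% of 12665 tested genes that were not members and in 3.01% of all 27025 genes with a promoter. A looser search asked for a run of at least 8 C or T bases that overlapped the 5 bases on either side of the start so that the searches share many starts. This run was found in 25 members (40.3%), in 12% of tested genes that were not members and in 11% of all genes with a promoter. A match here is a description of letters at an annotated start, which can differ from the start in use, so that these are not shares of mRNAs that carry a TOP tract. The log2 fold change of Atf6-/- against Atf6+/+ cochleae had a median of -0.077 over 25 members with the looser run and of -0.074 over 35 members with a matched start that lacked it, both counted over tested members with a mean of at least 1 FPKM.

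The targeted gene and the tissue were examined first. Mean Atf6 levels were 9.52 ± 1.11 and 4.26 ± 0.285 FPKM (SD over 5 Atf6+/+ and 6 Atf6-/- libraries), and the log2 fold change was -1.13 (SE 0.0837, limma adjusted p = 5.17e-05). Of the 6 hair cell markers listed and the 4 lateral wall markers, none was at 0 in all libraries. The groups also differed in the RNA of other cells. Of all genes tested, 5.37% were lower and 4.48% higher in Atf6-/- cochleae at an unadjusted limma p of 0.05 or less with a log2 fold change beyond 0.05. Among 15 neutrophil markers, 8 were lower in Atf6-/- cochleae by this threshold, with a summed level of 309 to 3670 FPKM in Atf6+/+ and 119 to 1380 FPKM in Atf6-/- libraries. Among 10 erythroid markers, 8 were lower, with sums of 4840 to 46400 FPKM against 2880 to 9390 FPKM, and among 10 B cell markers, 4 were lower, with sums of 12.9 to 38.1 FPKM against 10.2 to 18 FPKM. None of 7 bone markers and none of 9 tested skeletal muscle markers passed this threshold, and Birc5 was the 1 of 8 proliferation markers that did, lower in Atf6-/- cochleae. The log2 fold change lay below 0 for all 7 bone and all 8 proliferation markers, with medians of -0.552 and -0.682. Of the 9 muscle markers, 4 lay below 0 and 5 above, and 54.7% of all genes tested lay below 0. Among the cochlear markers, the outer hair cell genes Ocm and Slc26a5 and the lateral wall gene Coch were higher. None of these listed markers was at 0 in all libraries. In whole cochleae, fewer cells of a type and less RNA per cell cannot be told apart, and the part of these cell types in the results that follow was not tested unless a value is given.

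Ribosomal protein mRNAs were among the most abundant in the cochlea. Of the 83 members, 73 averaged at least 100 FPKM, and together they made up 6.33% ± 0.215 (SD, n = 5) of the FPKM sum in Atf6+/+ and 6.33% ± 0.456 (SD, n = 6) in Atf6-/- libraries. Single libraries spanned 6.09% to 6.65% among Atf6+/+ and 5.76% to 6.87% among Atf6-/- cochleae, so that the Atf6-/- range enclosed the whole Atf6+/+ range. The highest mean levels were those of Rpl38 at 1200 FPKM, Rplp1 at 1140 FPKM and Rps27 at 1100 FPKM. The median member of the small subunit averaged 366 FPKM and the median member of the large subunit 364 FPKM, over ranges of 18 to 1100 FPKM and 41.5 to 1200 FPKM. The low end of the small subunit was Rps15a, named after its values were seen, at 18 FPKM, whose longest RefSeq mRNA has 5179 nt. The FPKM of such a gene depends on which of its transcripts the estimate counts. Many ribosomal protein genes also have near-identical processed pseudogenes, so that reads can be split between copies, and single-gene levels are uncertain to that extent.

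A difference with genotype was called for 1 of 81 tested members. To be called, a gene needed an unadjusted limma p of 0.05 or less together with a log2 fold change beyond 0.05 in either direction, after the cutoffs of the study, which it applied to DESeq2 p-values and stated as a fold change. This threshold was met by 9.85% of all 16169 genes tested, 4.48% higher and 5.37% lower in Atf6-/- cochleae. The members left out of the test, Rpl39l and Rpl6l, averaged less than 0.1 FPKM. After Benjamini-Hochberg adjustment over all genes tested, 0 members had an adjusted p under 0.05, against 0.068% of all genes, and 1 member had an unadjusted p at or under 0.05. The log2 fold change lay below 0 for 70 members and above 0 for 11, whereas 54.7% of all genes tested lay below 0. Its median was -0.0728 over the members and -0.0134 over all genes. Complete separation of the groups, with every Atf6-/- library below every Atf6+/+ library, was seen for the 1 member called and for 0.606% of all genes tested.

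The 1 member called was Rpl22l1 (NCBI gene 68028), the paralog of Rpl22, which encodes an RNA-binding protein of the large subunit. Rpl22l1 was measured at 22.28, 22.04, 20.45, 21.08 and 23.13 FPKM in the Atf6+/+ libraries and at 18.33, 17.58, 20.30, 17.26, 13.60 and 15.16 FPKM in the Atf6-/- libraries. The groups did not overlap, although the highest Atf6-/- library lay just under the lowest Atf6+/+ library. Group means were 21.8 ± 1.05 and 17.0 ± 2.37 FPKM (SD over 5 and 6 libraries), and the log2 fold change was -0.36 (SE 0.0888, limma unadjusted p = 0.00141, adjusted p = 0.294; exact two-sided permutation test, p = 0.00433). It therefore passed the unadjusted threshold and not the adjusted one.

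Rpl22 itself had 40.88, 44.66, 42.03, 41.08 and 46.49 FPKM in Atf6+/+ and 42.69, 38.89, 44.06, 39.30, 37.48 and 39.11 FPKM in Atf6-/- libraries. These groups overlapped, and the log2 fold change was -0.10 (SE 0.0535, limma adjusted p = 0.559). As a percent of the Rpl22 level in the same library, Rpl22l1 stood at 54.5, 49.4, 48.7, 51.3 and 49.8 in Atf6+/+ and at 42.9, 45.2, 46.1, 43.9, 36.3 and 38.8 in Atf6-/- libraries. This ratio of levels averaged 50.7% ± 2.33 (SD, n = 5) and 42.2% ± 3.86 (SD, n = 6), and the groups did not overlap. The Rpl22l1 level and ratio were lowest in Atf6-/- libraries 5 and 6. The longest RefSeq mRNA has 552 nt for Rpl22l1 and 2051 nt for Rpl22, while their longest transcripts have 1908 and 2051 nt. The ratio thus need not cancel differences between libraries in short transcripts. With the trend of level with RefSeq mRNA length removed, the log2 fold change of Rpl22l1 was -0.19 (SE 0.0719, limma unadjusted p = 0.0191, adjusted p = 0.387).

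**Figure D1:**
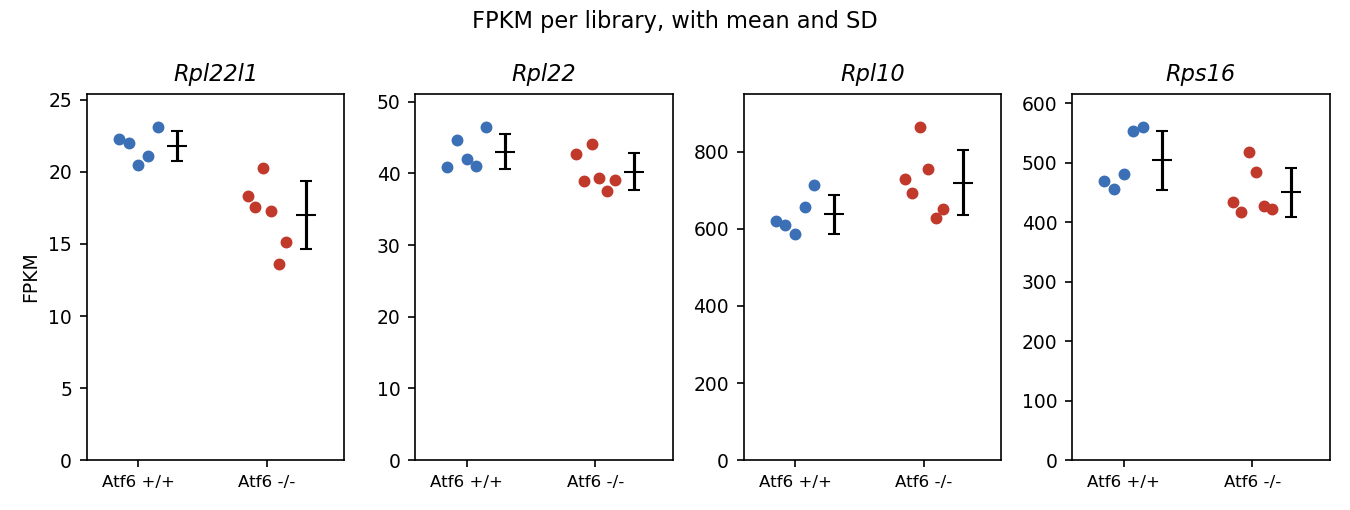
FPKM of Rpl22l1, Rpl22, Rpl10 and Rps16 in each library (points, 5 Atf6+/+ and 6 Atf6-/-) on axes from 0, with the mean and SD of each group beside them. The 6 Atf6-/- values of Rpl22l1 sit between 13.60 and 20.30, all below the Atf6+/+ values, whereas the groups overlap for the other genes.

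Among the 43 large subunit genes, 40 lay below 0 on the log2 fold change scale, with a median of -0.0837 and a range of -0.19 to 0.17, and none was called. Rpl37a, a zinc-binding protein of the large subunit, had the most negative value. Its level spanned 233.07 to 332.98 FPKM among Atf6+/+ and 208.39 to 257.61 FPKM among Atf6-/- libraries, and its log2 fold change was -0.19 (SE 0.0936, limma adjusted p = 0.522). The highest Atf6+/+ value was that of library 5, and the groups overlapped. The log2 fold change of Rpl37a was -0.10 without that library and -0.02 with the trend of level with transcript length removed, and the gene was called without Atf6+/+ library 1 or 2 (limma unadjusted p = 0.0326 and 0.0405). Rpl5, which binds the 5S rRNA and, when free, the p53 regulator MDM2, had a log2 fold change of -0.13 (SE 0.0681, limma adjusted p = 0.543). The log2 fold change was -0.16 for Rpl39, -0.16 for Rpl36a, -0.15 for Rpl17 and -0.14 for Rpl10a, and the limma adjusted p lay between 0.548 and 0.584.

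Rpl10 (NCBI gene 110954), an X-linked gene whose protein is among the last to join the large subunit and lies near the peptidyl transferase center, was the large subunit gene with the highest value. It was measured at 620.52, 608.42, 585.96, 657.46 and 713.36 FPKM in Atf6+/+ and at 730.03, 691.78, 864.18, 753.67, 627.37 and 651.01 FPKM in Atf6-/- libraries. The groups overlapped, with Atf6+/+ library 5 above 3 of the Atf6-/- libraries. Group means were 637 ± 49.9 and 720 ± 85.0 FPKM (SD over 5 and 6 libraries), and the log2 fold change was 0.17 (SE 0.0882, limma adjusted p = 0.529).

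Among the 30 small subunit genes, 27 lay below 0, with a median log2 fold change of -0.0692 and a range of -0.16 to 0.02, and none was called. Rps16, whose tail reaches toward the tRNA in the P site, had the smallest p of this group. Its level was 469.66, 456.16, 480.98, 553.49 and 560.58 FPKM in Atf6+/+ and 433.37, 417.40, 517.77, 484.06, 427.39 and 422.98 FPKM in Atf6-/- libraries, and its log2 fold change was -0.16 (SE 0.0803, limma adjusted p = 0.518). The Atf6-/- values of libraries 3 and 4 lay within the Atf6+/+ range. Rps27a, made as a fusion with ubiquitin, was at -0.14 on the log2 fold change scale and Rps29 at -0.16 (limma adjusted p = 0.539 and 0.561). Rps4x, the X-linked form of a small subunit protein, averaged 320 and 303 FPKM with a log2 fold change of -0.08, and Rps27 averaged 1120 and 1080 FPKM with a log2 fold change of -0.05. At the other end, Rps2 had nearly equal means of 471 and 470 FPKM and a limma unadjusted p of 0.990.

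The stalk proteins recruit the translation factors that hydrolyze GTP. Rplp0, the base of the stalk, had means of 403 ± 33.4 and 414 ± 33.1 FPKM (SD over 5 Atf6+/+ and 6 Atf6-/- libraries). In the same order, the means were 1170 ± 129 and 1120 ± 101 FPKM for Rplp1 and 326 ± 24.7 and 302 ± 28.3 FPKM for Rplp2. Their log2 fold changes were 0.04, -0.06 and -0.11, and limma adjusted p ranged from 0.598 to 0.874, so that none of the 3 was called. With single libraries left out, Rplp0 spanned 0.0092 (without Atf6+/+ library 1) to 0.08 (without Atf6+/+ library 4), and Rplp1 reached -0.0036 without Atf6+/+ library 5 and -0.10 without Atf6+/+ library 3 or Atf6-/- library 3.

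The paralogs were low in the cochlea compared with the genes they resemble. Among the 5 tested, Rpl22l1 lay below 0 and the other 4 above it, and the median log2 fold change was 0.064. Rps27l, a p53-responsive paralog of Rps27, had means of 26.9 ± 2.29 and 27.5 ± 3.97 FPKM (SD over 5 and 6 libraries) and its log2 fold change was 0.02 (limma adjusted p = 0.953). Its level was 2.41% ± 0.161 (SD, n = 5) and 2.56% ± 0.366 (SD, n = 6) of the Rps27 level. Rpl7l1 averaged 17.2 ± 0.626 and 18 ± 1.22 FPKM, and its log2 fold change was 0.06 (limma adjusted p = 0.691). Relative to Rpl7 in the same library, its level spanned 3.86% to 4.52% among Atf6+/+ and 4.27% to 5.06% among Atf6-/- libraries, and these ranges overlapped. Rpl32l averaged 1.98 ± 0.298 and 2.44 ± 0.879 FPKM, and Atf6-/- library 5, at 0.80 FPKM, was its lowest. Without that library the log2 fold change of Rpl32l went from 0.19 to 0.46, and the gene was called (limma unadjusted p = 0.00462). In that run 1293 of 16169 genes were called. A rise is built in when the lowest Atf6-/- value is left out. Without Atf6-/- library 4, the highest for Rpl32l, its log2 fold change was 0.08 (limma unadjusted p = 0.798).

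Rpl3l and the paralogs below the filter were near the limit of the 2-decimal values. Rpl3l was listed at 0.03, 0.14, 0.19, 0.07 and 0.28 FPKM in Atf6+/+ and at 0.10, 0.28, 0.73, 0.14, 0.10 and 0.09 FPKM in Atf6-/- libraries. Its highest value came from Atf6-/- library 3, in which the 11 skeletal muscle markers listed, such as Acta1 and Ckm, summed to 48.8 FPKM, against 4.94 to 10.3 FPKM in the other libraries. The log2 fold change of Rpl3l was 0.35 (SE 0.419, limma adjusted p = 0.788) and became 0.05 without that library. Rpl39l, a paralog of Rpl39 used in male germ cells, averaged 0.0873 FPKM, and Rpl6l was listed at 0 in every library except Atf6-/- libraries 2 and 6, at 0.12 and 0.11 FPKM.

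The members varied together from library to library, by more than they differed between the groups. For each of the 80 members with a mean of at least 1 FPKM, the log2 level in a library was expressed as its deviation from the mean of that gene over the 11 libraries. The median deviation was -0.049, -0.055, -0.013, 0.087 and 0.222 in the Atf6+/+ libraries. It was 0.011, -0.058, 0.145, 0.087, -0.204 and -0.164 in the Atf6-/- libraries. Atf6+/+ library 5 was thus the highest and Atf6-/- libraries 5 and 6 the lowest, and the groups overlapped. The group means of this deviation differed by -0.0689, less than the SD of 0.117 among Atf6+/+ and 0.138 among Atf6-/- libraries.

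Single genes kept to the same order. Within the Atf6+/+ group, library 5 had the highest level for 68 of the 80 members, and within the Atf6-/- group, library 3 was the highest for 66 and library 5 the lowest for 57. Over the 80 members, the median SD within groups was 0.142 on the log2 scale, and subtracting the median deviation of the members in each library lowered it to 0.0614, with a fall for 75 of the 80. For 697 other genes of at least 100 FPKM, the same subtraction raised the median SD from 0.122 to 0.147, and it fell for 35.0%. The members contribute to the median that was subtracted, so a fall is partly built in. The small and large subunit genes followed this pattern alike, and their differences between group means were -0.0608 and -0.0785.

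**Figure D2:**
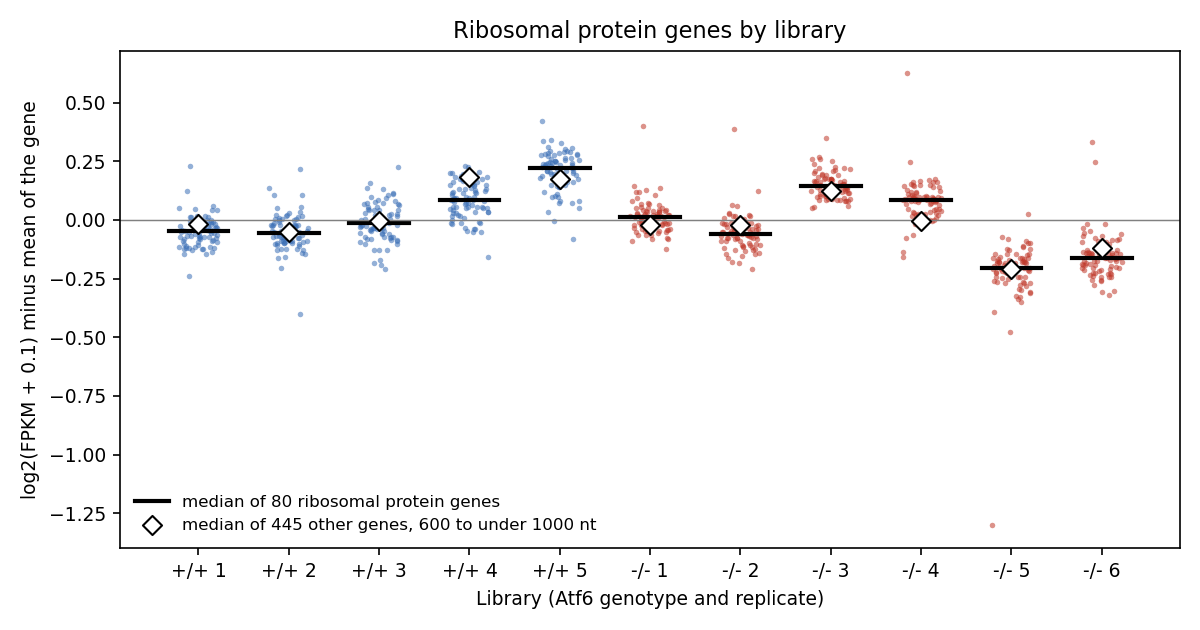
Deviation of each of 80 ribosomal protein genes (points) from its own mean, in log2(FPKM + 0.1), in each of the 11 libraries, with the median of these genes as a bar and the median of 445 other genes of 600 to under 1000 nt as a diamond. The medians of the ribosomal protein genes run from -0.204 in Atf6-/- library 5 to 0.222 in Atf6+/+ library 5, and the diamonds move in the same direction in these libraries.

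The erythroid markers were highest in the same Atf6+/+ library 5, at a sum of 46400 FPKM, against 4840 to 16100 FPKM in the other Atf6+/+ libraries, and so was the sum of the bone markers, at 1880 FPKM. Neutrophil markers were highest in Atf6+/+ library 3, at 3670 FPKM, where the members had a median deviation of -0.013. In Atf6-/- libraries 5 and 6, where the members were lowest, erythroid markers summed to 6450 and 9390 FPKM, the upper end of that group. With a bone marrow score, which averages the marker scores for erythroid cells, neutrophils and B cells, as a covariate, the median log2 fold change of the members was -0.0912, and Rpl22l1, Rpl22 and Rpl5 were called lower, beside 3.4% of all genes called lower.

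Short transcripts were then compared between libraries, because the members are short. Their longest RefSeq mRNA had a median of 830 nt, against 2999 nt for the other genes. Genes outside the family with a mean of at least 1 FPKM were binned by their longest transcript in GENCODE M21, and the same deviation was taken. The difference in mean deviation between Atf6-/- and Atf6+/+ libraries was -0.136 for 76 genes under 600 nt and -0.0987 for 445 genes of 600 to under 1000 nt. It was -0.0494 for 2118 genes of 1000 to under 2000 nt, -0.00995 for 5496 genes of 2000 to under 4000 nt and 0.021 for 5235 genes of 4000 nt or more. The difference thus rose with length across the 5 bins, and the -0.0689 of the ribosomal protein genes fell between the second and the third bin. With genes binned by the median in place of the longest length of their transcripts, the differences were -0.0438, -0.0166, -0.0131, 0.00741 and 0.0323 from the shortest bin to the longest. The order was the same, but the ribosomal protein genes then lay below every bin.

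Single libraries differed in short transcripts by more than the groups did. In the bin under 600 nt, the libraries spanned 0.571 on the log2 scale. The median deviation was 0.274 and 0.250 in Atf6+/+ libraries 4 and 5 and -0.297 in Atf6-/- library 5, while Atf6-/- libraries 3 and 4 had 0.130 and 0.129. The libraries of both groups overlapped in every bin. Atf6+/+ library 4 stood above Atf6+/+ library 5 for genes of 600 to under 1000 nt, at 0.182 against 0.173, but below it for the ribosomal protein genes, at 0.087 against 0.222. The order of libraries by short transcripts and by ribosomal protein genes was therefore alike at its lower end and not identical.

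**Figure D3:**
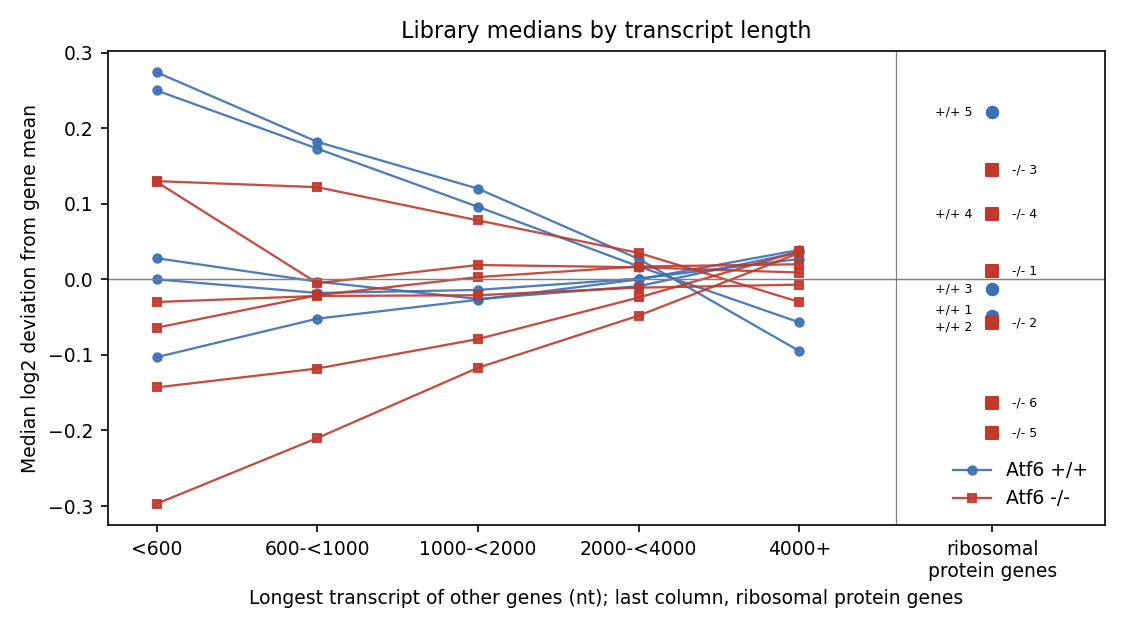
Median deviation from the gene mean (log2 scale) in each library, one line per library, for genes outside the family in 5 bins of longest transcript length, with the median of the ribosomal protein genes in the last column. Lines fan out below 2000 nt, from -0.297 to 0.274 under 600 nt, and converge for genes of 2000 to under 4000 nt.

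Within the family, length was less clearly ordered. By the length of the longest RefSeq mRNA, the median log2 fold change was -0.0681 for 22 members under 600 nt, -0.0694 for 33 members of 600 to under 1000 nt and -0.0844 for 24 members of 1000 nt or more. The median SD within groups was 0.159, 0.134 and 0.125 on the log2 scale in the same order. On the deviation used for the other genes, the difference between group means was -0.0891, -0.0614 and -0.0772 in the same order. The bins of other genes given above were by longest transcript. With the other genes also binned by longest RefSeq mRNA, the difference was -0.133 under 600 nt and -0.0927 for 600 to under 1000 nt. It was -0.0489 for other genes of 1000 to under 2000 nt. The shortest members thus varied most between libraries of a group, whereas which length class differed most between groups depended on the measure.

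When the trend of level with transcript length, fitted within each library over genes outside the family, was removed, the sign of most members turned. The median log2 fold change of the members became 0.0579, with 58 of 81 above 0, and 14 were called, 13 of them higher. Of all genes tested, 11.4% were then called, 7.94% higher. They included Rpl10, Rpl19, Rpl23a, Rpl24, Rpl27 and Rpl7a of the large subunit, the paralog Rpl7l1 and the stalk gene Rplp0. Over all genes, the same removal gave a median of 0.0197. With the trend in GC content removed as well, 18 members were called, 17 of them higher, while 11% of all genes were called, 7.51% higher. With length taken from the longest RefSeq mRNA, a choice made after the data were seen, 20 members were called, 19 of them higher, with a median of 0.0698, beside 11.3% and 7.93% of all genes. Whether the ribosomal protein genes as a family lay above or below 0 therefore depended on the treatment of length, in the direction opposite to that of the values as deposited.

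Rescaling each library to a common sum (TPM) brought the difference in mean deviation of the 80 members to -0.012. The median log2 fold change was then -0.016 over the members and 0.0426 over all genes, and 31 of 81 members lay above 0. The bin of 600 to under 1000 nt stood at -0.0427 and the bin of 4000 nt or more at 0.0776. Under this scaling Rpl10 and Rpl7l1 were called higher and Rpl22l1 lower, beside 11.3% of all genes called, 8.59% higher and 2.72% lower.

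**Figure D4:**
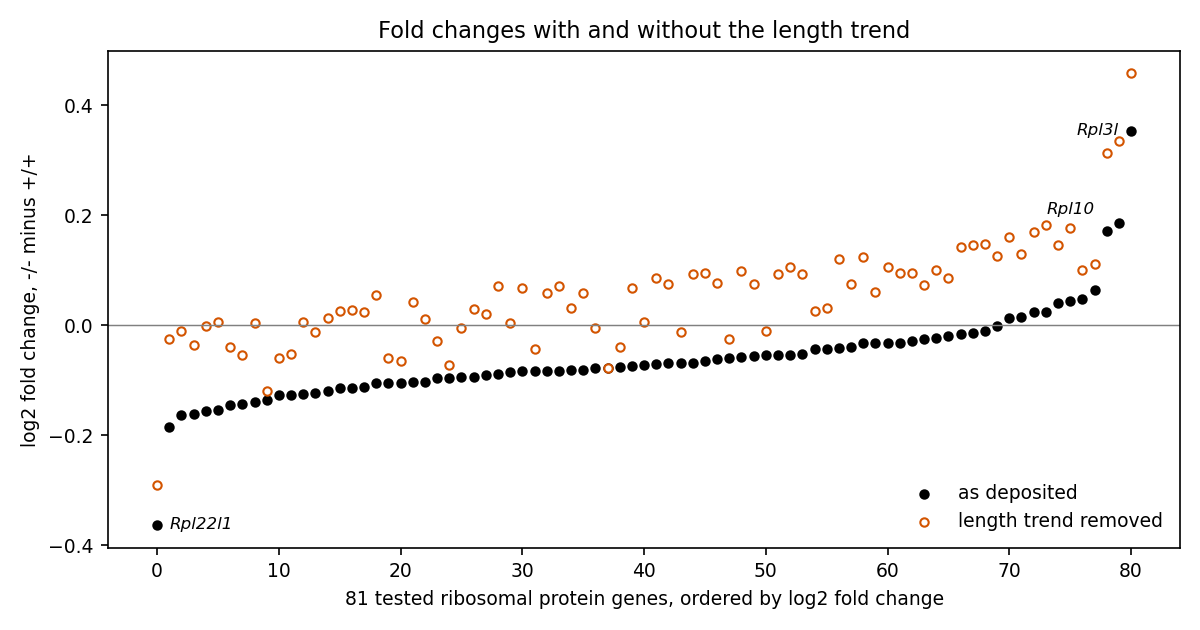
Log2 fold change of Atf6-/- against Atf6+/+ cochleae for 81 tested ribosomal protein genes in order of their value as deposited (filled), with the value after removal of the length trend (open) at the same position. The filled points have 70 of 81 values below 0 and the open points 58 of 81 above 0, with Rpl22l1 the lowest in both.

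Rpl22l1 and Rpl10, chosen for their small p, were then followed relative to the rest of the family. Centred on the median of the ribosomal protein genes in each library, a step added after the data were seen, Rpl22l1 had a log2 fold change of -0.30 (SE 0.0773, limma unadjusted p = 0.00184, adjusted p = 0.438). Rpl10 had 0.24 (SE 0.0542, limma unadjusted p = 0.00058, adjusted p = 0.311). The centred Rpl10 values were -0.078, -0.099, -0.199, -0.130 and -0.148 in Atf6+/+ and 0.098, 0.085, 0.205, 0.066, 0.092 and 0.106 in Atf6-/- libraries, so that the groups no longer overlapped. Centred, 77 of the 80 members overlapped between groups, and the exceptions were Rpl10, Rpl22l1 and Rpl10a, of which Rpl10a was not called (log2 fold change -0.07, limma unadjusted p = 0.168). Of all genes centred in this way, 0.445% were separated upward and 0.198% downward. Centring called 6.83% of all genes tested, 4.74% higher. After removal of the length trend Rpl10 had a log2 fold change of 0.31 (SE 0.0508, limma adjusted p = 0.0466) and Rpl22l1 of -0.29 (SE 0.0656, limma adjusted p = 0.183). The call of Rpl22l1 at the unadjusted threshold was made under all 25 alternatives, with log2 fold changes from -0.46 to -0.19. Rpl10 lay above 0 under all 25, from 0.11 to 0.34, but was called under 9 of them and not under the other 16. With the bone marrow score, Rpl10 stood at 0.11 (limma unadjusted p = 0.353).

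Single libraries decided how many members were called. Without Atf6-/- library 3, 11 members were called, all lower, with a median log2 fold change of -0.108, beside 10.4% of all genes called and 6.01% called lower. They were Rpl10a, Rpl22, Rpl22l1, Rpl23, Rpl36a, Rpl39, Rpl5, Rplp2, Rps16, Rps27a and Rps29. Without Atf6+/+ library 5 the median was -0.0295 and 2 members were called, Rpl10 higher and Rpl22l1 lower, beside 10.6% of all genes. Without Atf6-/- libraries 5 and 6, a pair chosen because their members were lowest, the median was 0.007 with 44 of 81 above 0. In that run 4 were called, Rpl10, Rpl30 and Rpl32l higher and Rpl22l1 lower, beside 6.81% of all genes. A rise of the member values is built in by the choice of this pair.

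Gene lists close to the family gave the following, beside 4.48% of all genes called higher and 5.37% called lower. For the 6 other cytosolic ribosomal genes, whose symbols the rule did not match, the median log2 fold change was -0.0719, and 0 were called. Among them Rpsa averaged 405 and 387 FPKM, Fau 339 and 310 FPKM, and Rack1, a scaffold on the small subunit, 225 and 214 FPKM. Of 18 other mRNAs known for a TOP tract, mostly translation factors, 3 were called lower and 0 higher, with a median of -0.029. The 3 were Eef1b2, an exchange factor for the elongation factor, at a log2 fold change of -0.16, the RNA-binding protein Hnrnpa1 at -0.11 and the histone chaperone Nap1l1 at -0.15 (limma adjusted p = 0.475, 0.462 and 0.434).

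Of 34 ribosome biogenesis genes, 1 was called, Gar1 of the pseudouridylation complex, which fell by 0.28 on the log2 scale (limma adjusted p = 0.415), and the list median was -0.0181. Of 17 genes of the mTORC1 and LARP1 pathway, Eif4ebp2, a repressor of cap-dependent translation, and Larp1 were called higher, with log2 fold changes of 0.26 and 0.10, and Rheb, the activator of mTORC1, was called lower at -0.14 (limma adjusted p = 0.470 to 0.491). Of 18 ribosome quality control genes, 3 were called higher, Ascc2 at 0.15, Gigyf2 at 0.13 and Gtpbp1 at 0.11, and 0 lower, with a median of 0.0172. None of these lists had a member with an adjusted p under 0.05.

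Lists of other short and abundant mRNAs were set beside the family and beside all genes tested, of which 5.37% were called lower and 54.7% lay below 0. For the 78 mitochondrial ribosomal protein genes the median log2 fold change was -0.0541, with 63 below 0, 6 called lower and 0 higher. The 73 respiratory chain subunit genes had a median of -0.126, with 73 below 0, 12 called lower and 0 higher. Their median longest RefSeq mRNA had 1253 and 760.5 nt. The median of the cytosolic ribosomal protein genes, -0.0728, lay between those of these lists.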

How the data were processed

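RNA was extracted from whole cochleae, and stranded mRNA libraries were sequenced on the DNBSEQ platform. The authors aligned reads to GRCm39 with HISAT2 2.0.4 and deposited FPKM values estimated with RSEM (version 1.2.12 in the submitters' processing notes). Read counts were not used here, so no counting interval is given, and the depth of single libraries was not assessed beyond the read number the study states. FPKM summed to 474616 to 537926 in the Atf6+/+ and to 462005 to 502419 in the Atf6-/- libraries. The sources do not say whether any cochleae came from the same mouse, so p-values measure only the spread between these samples.

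Tables were joined by NCBI gene identifier, and the 16169 genes that averaged 0.1 FPKM or more were tested on log2(FPKM + 0.1), a scale that understates changes of low genes, with limma 3.58.1 (R 4.3.3; mean-variance trend, genotype only, two-sided, Benjamini-Hochberg). Single genes were also compared by exact permutation over all splits into 5 and 6, whose smallest p is 0.00216. The study's DESeq2 test needs counts and was not used. The script was tested on simulated data. Transcript lengths came from GENCODE M21 (97.7% of tested genes, 82 of 83 members), and trends with length were removed with mgcv 1.9.3.

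The named members were those with the 12 smallest p, the 3 highest and 3 lowest means, the stalk genes, paralogs with their parents, and Rps4x as a symbol ending in x. Starts were printed for the 4 smallest and 2 largest p. Some members called under an alternative are named as well. The members and lists were chosen with earlier results of these data known. Alternatives were pseudocounts of 1 and 0.01, other filters, TPM and median-of-ratios scaling, robust variance, a bone marrow score, a replicate block, removal of length and GC trends, and leaving out each library. Some single-gene results are not reported here.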

Additional observations from a re-analysis of the deposited data

Results flagged for a closer look

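In a check of single libraries against the rest of their group, 2 of 52 groups of values held a library far from the others, where chance gives about 1 group in 20. Rpl3l was listed at 0.73 FPKM in Atf6-/- library 3, while the other libraries of that group lay between 0.09 and 0.28 FPKM. The same library held the highest sum of skeletal muscle markers, 48.8 FPKM. Rpl39l was listed at 0.26 FPKM in Atf6+/+ library 1, while the other Atf6+/+ libraries lay between 0.06 and 0.07 FPKM.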

How the results depend on the processing

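The members called at the unadjusted threshold numbered 1 as deposited, beside 1592 of all 16169 genes tested. They numbered 2 with median-of-ratios scaling or after centring on the family, beside 1637 and 1104 genes. With TPM or with the bone marrow score they numbered 3, beside 1828 and 875 genes. With trends removed, they numbered 14 for length, 18 for length and GC, and 20 for RefSeq mRNA length, beside 1850, 1771 and 1826 genes. Without Atf6-/- libraries 5 and 6, the pair chosen for its low members, they numbered 4, beside 1101 genes. With single libraries left out they numbered 1 to 11, beside 1196 to 1865 genes. The adjusted count of the members was 1, Rpl10, under each of the 3 length corrections and 0 with any single library left out. Of all 16169 genes, 16 passed the adjusted threshold with the length trend removed, 18 with length and GC, and 18 with RefSeq mRNA length. That number was 11 as deposited and 8 to 13 with single libraries left out. The median log2 fold change of the members was 0.0579 with the length trend and 0.0698 with the RefSeq mRNA length trend removed, 0.0455 with length and GC removed, and -0.108 to -0.0295 with single libraries left out. The cause of these shifts was not tested.

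Some named members changed sign, and others moved toward 0 with the length trend removed, Rps16 to -0.04, Rpl37a to -0.02 and Rps29 to -0.0020. With the length trend removed, Rpl39 stood at 0.0058, Rplp1 at 0.10, Rplp2 at 0.03, Rps27a at 0.0042 and Rps4x at 0.06 on the log2 fold change scale. With length and GC removed, they stood at 0.02, 0.07, 0.02, 0.05 and 0.07, and Rps29 at 0.0030. With the RefSeq mRNA length trend removed, they stood at 0.01, 0.11, 0.02, 0.01 and 0.05, Rps29 at 0.02, Rpl10a at 0.0068, Rpl17 at 0.0094 and Rpl36a at 0.0080. Rplp1 stood at 0.0098 after centring. Rps27l stood at -0.0023 with the bone marrow score, -0.02 without Atf6-/- libraries 5 and 6, and -0.03 to 0.07 with single libraries left out.

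With TPM, list medians were 0.0669 for mTORC1 and LARP1, 0.0385 for biogenesis, 0.0736 for quality control, 0.00258 for mitochondrial ribosomal genes, 0.0278 for TOP mRNAs, -0.015 for the other cytosolic ribosomal genes and -0.069 for the respiratory chain, and the differences of the bins of 2000 to under 4000 nt and of 4000 nt or more were 0.0465 and 0.0776. With the length trend removed, the medians were -0.000291 for the respiratory chain, 0.0483 for quality control, 0.0545 for the other cytosolic ribosomal genes, 0.0239 for mitochondrial ribosomal genes, 0.0244 for TOP mRNAs and 0.016 for biogenesis, so that the last 4 changed sign. With length and GC removed, they were 0.00312 for the respiratory chain, 0.0337 for biogenesis, 0.0406 for quality control and 0.033 for TOP mRNAs. With single libraries left out, quality control ranged from 0.00378 to 0.045, mTORC1 and LARP1 from 0.00319 to 0.0378, TOP mRNAs from -0.0608 to -0.0151 and biogenesis from -0.0432 to 0.00807. Pseudocounts, filters and robust variance left every count and median of the members within 1.5 times or 1 SD. Atf6 was called in every alternative run.

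Libraries with the same replicate number did not deviate together (r between -0.21 and 0.119, and 1 of 5 Atf6+/+ libraries correlated best with its own number). With a replicate block, in which Atf6-/- library 6 has no partner and carries no weight, 1 member was called, Rps27l stood at -0.03 and the median of the members was -0.0455, while calls over all genes went from 1592 to 1078. Read counts were not used here, so no counting error is given for low members such as Rpl3l.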
